A study of Mus musculus with 4 samples.

Results

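Potassium channel genes are described here across the cell classes of the adult mouse lung. The members are the genes whose symbol is Kcn followed by a family letter code and a number, which found 92 of 31055 deposited features. In cells that passed a floor of 500 genes and a ceiling of 10% mitochondrial unique molecular identifiers (UMIs, each marking 1 captured RNA molecule), the pooled data held at least 100 UMIs of 32 members, and these 32 are described by class. They stand among 13222 genes of that depth and carried 96.7% of the 34159 potassium channel UMIs. Of the other 60 members, 17 had 30 to 99 UMIs, 30 had 1 to 29 and 13 had none. The members just above the minimum were Kcnip3 (113 UMIs), Kcnd1 (120) and Kcnip4 (124), and those just below were Kcnd3 (97), Kcnh3 (94) and Kcnab1 (88).

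The cells came from lungs of mice about 8 weeks old that carried 1 Gli1-CreERT2 allele (a tamoxifen-activated recombinase expressed from the hedgehog target gene Gli1) and 1 Rosa26 mTmG allele (a reporter that switches from red to green fluorescence after recombination), each over a wild-type allele. All mice received tamoxifen, cells lacking CD45 and CD31 were sorted, and no untreated, unrecombined or other comparison group was analysed here. The labels give B6D2F1/J in one field and C57BL/6J in another, so the strain is uncertain, and how many animals were used is not given in the sources used here. Since the 4 samples bear the same labels and 1 matrix pools them with no map from cells to samples, all cells form 1 sample, and differences between classes have no replicate check and no p-value.

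Potassium channels let potassium leave the cell and hold the membrane potential negative. Inward rectifiers (Kcnj) and 2-pore-domain leak channels (Kcnk) act near rest, voltage-gated channels (such as Kcna, Kcnd and Kcnh) open on depolarisation, and calcium-activated channels (Kcnma, Kcnn) couple the potential to calcium. In lung epithelium, potassium exit helps drive chloride and fluid movement, and in smooth muscle it opposes contraction.

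After the filters and removal of called doublets, 8933 cells with a median of 7967 UMIs remained, and 11 classes were named from marker genes, always as "-like". They were fibroblasts of the adventitial-like (3235 cells), alveolar-like (2216) and peribronchial or myofibroblast-like (426) kind, smooth muscle-like (179), mesothelial-like (208), alveolar type 1-like (210), alveolar type 2-like (1641), ciliated-like (238), club or secretory-like (74), endothelial-like (61) and leukocyte-like (90) cells. The last pair persisted in spite of the sort. Sftpc, the surfactant protein gene of type 2 cells, was found at 8.40% of its type 2 level in type 1-like cells, 11.8% in endothelial-like and 4.04% in club-like cells, and at 0.319% to 3.5% in the other classes. A further 298 cells (3.34%) stayed unnamed, and 57 proliferating-like cells were treated as a state. Potassium channel genes were kept out of the clustering, so they did not define the classes. Levels are UMIs summed over a class and scaled to 1000000 UMIs of that class (CPM), with exact Poisson 95% intervals that cover counting error only. Because each molecule is counted once at its 3′ end, CPM is not scaled by gene length, and levels are compared here for 1 gene across classes.

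Of the 32 members, 19 were at least 2-fold higher in their highest class than in any other, and for 16 of these the lower 95% bound of that ratio was above 1. Over all 13106 genes counted the same way, 23.9% passed 2-fold. The median ratio of highest to next class was 2.45 over the members and 1.32 over all genes. Type 1-like cells were the highest class for none of the 32, ciliated-like cells for 6, type 2-like and smooth muscle-like cells for 5 each, and alveolar-like and peribronchial or myofibroblast-like fibroblasts for 4 each.

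**Figure D1:**
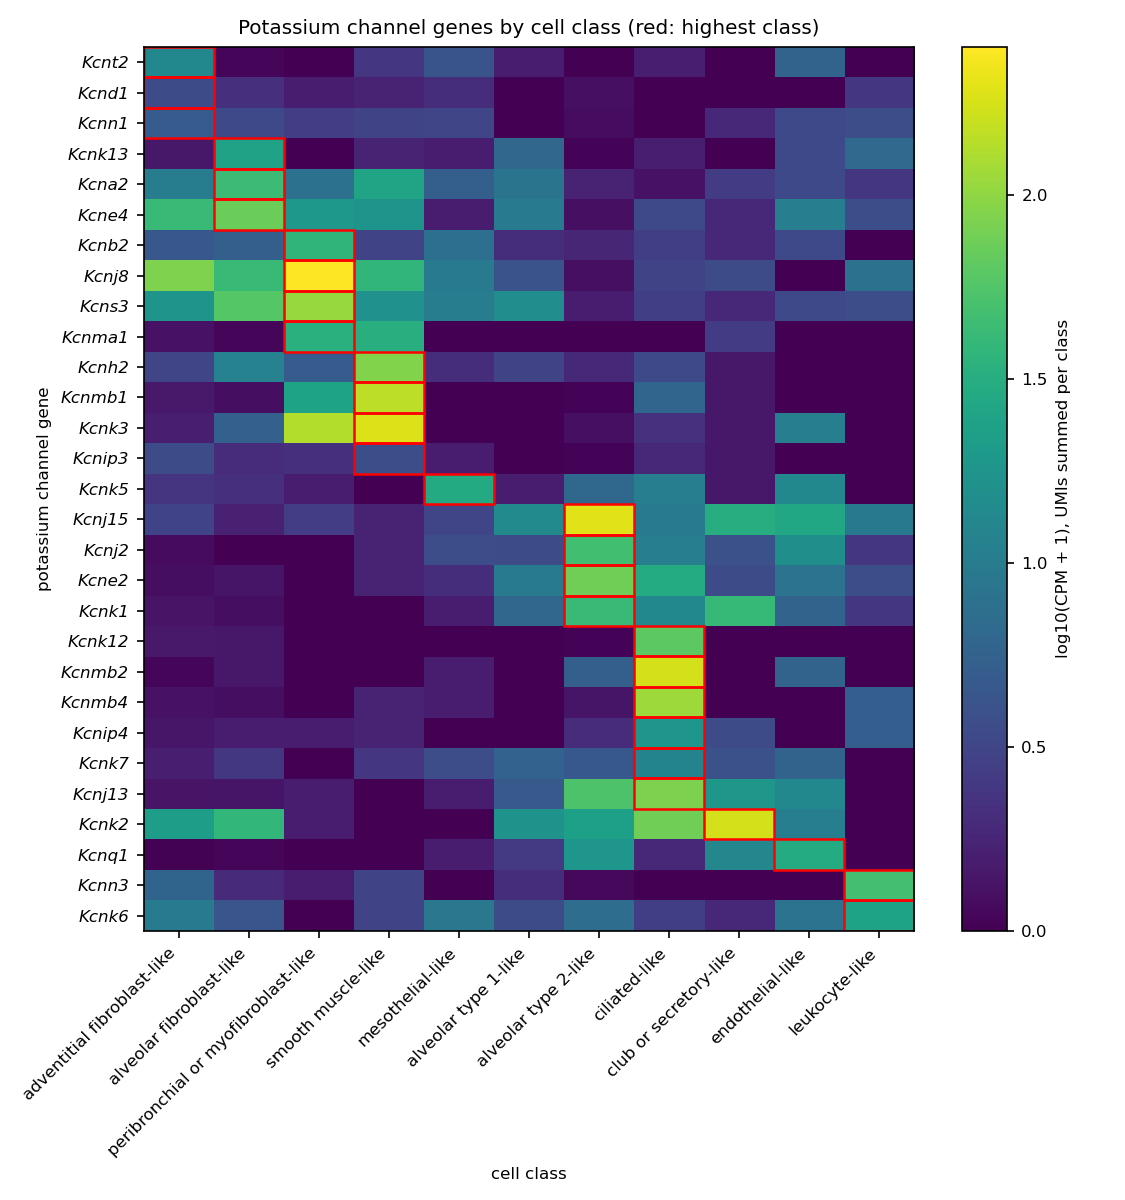
Level of 29 of the 32 potassium channel genes (rows) in 11 cell classes (columns), as log10(CPM + 1) of UMIs summed per class, with the highest class of each gene outlined in red. Blocks of high values lie in the type 2-like, ciliated-like and contractile columns, and no gene is outlined under type 1-like cells.

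The start regions of 4 genes that the airway and muscle results turn on are shown first. Of these, 3 encode accessory beta subunits of a single calcium-activated channel. Kcnmb1 was highest in smooth muscle-like cells, and Kcnmb2 and Kcnmb4 were highest in ciliated-like cells. Each run is the 250 bases before the RefSeq start (GRCm38.p6), 5′ to 3′ on the gene's strand, with CpG dinucleotides in capitals.
Kcnmb1, smooth muscle-like, chr11:33962763-33963012, plus strand: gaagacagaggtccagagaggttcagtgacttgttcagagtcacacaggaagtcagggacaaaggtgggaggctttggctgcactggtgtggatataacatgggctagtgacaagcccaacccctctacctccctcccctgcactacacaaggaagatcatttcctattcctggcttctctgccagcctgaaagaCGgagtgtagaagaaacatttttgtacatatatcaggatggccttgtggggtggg
Kcnmb2, ciliated-like, chr3:31902453-31902702, plus strand: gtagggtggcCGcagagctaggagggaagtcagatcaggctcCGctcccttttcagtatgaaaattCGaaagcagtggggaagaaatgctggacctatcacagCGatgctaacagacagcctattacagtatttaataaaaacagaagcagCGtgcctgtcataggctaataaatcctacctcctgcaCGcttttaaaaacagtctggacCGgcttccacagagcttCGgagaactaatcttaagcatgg
Kcnmb4, ciliated-like, chr10:116473524-116473773, minus strand: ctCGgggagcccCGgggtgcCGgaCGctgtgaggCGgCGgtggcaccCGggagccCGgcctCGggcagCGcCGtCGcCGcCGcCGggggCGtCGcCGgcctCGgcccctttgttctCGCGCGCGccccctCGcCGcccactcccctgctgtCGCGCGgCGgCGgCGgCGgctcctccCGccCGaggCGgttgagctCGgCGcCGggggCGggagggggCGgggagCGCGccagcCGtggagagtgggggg
Kcnk12, ciliated-like, chr17:87797995-87798244, minus strand: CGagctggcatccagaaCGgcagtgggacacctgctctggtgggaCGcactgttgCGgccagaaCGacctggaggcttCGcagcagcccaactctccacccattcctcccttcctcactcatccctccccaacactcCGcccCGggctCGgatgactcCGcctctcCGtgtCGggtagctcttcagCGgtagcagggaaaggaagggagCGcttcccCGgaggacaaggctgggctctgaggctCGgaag
The Kcnmb1 window held 1 CpG, that of Kcnmb2 8, that of Kcnk12 16 and that of Kcnmb4 43. Over 32851 mouse promoters of this length the median was 6, with quartiles of 2 and 16, and 99.3% had fewer than Kcnmb4. RefSeq promoters were matched for 24 of the 32 members, with 33 windows in all. A gene is named below if any of its windows matched, while the shares of all promoters count single windows. The serum response factor motif known as the CArG box, found in many muscle genes, was in none of the 33 on either strand (1.47% of all promoters). GTTGCC, a core of sites for the ciliary RFX factors, was found on either strand for Kcne2 and Kcnt2 (10.4% of all promoters), GTAAACA, a forkhead core, for none (3.17%), and CAAGTG, an NKX2-1 core, for Kcnip3 and Kcns3 (11.6%). These are matches of letters in a 250-base window only.

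The broadest division was between mesenchymal and epithelial classes. Of the 32 members, 17 were at least 2-fold higher in mesenchymal-like cells, where 24.3% of all genes were, and 13 were at most 0.5-fold, where 17.6% of all genes were. The median ratio was 5.65 over the members and 1.16 over all genes. Kcnj8, the pore of vascular ATP-sensitive channels, was at 74.3 CPM in mesenchymal-like and 0.981 CPM in epithelial-like cells, a ratio of 75.7 (95% interval 50.4 to 119.6). In the other direction Kcne2, an accessory subunit of KCNQ channels, was at 0.308 against 56.1 CPM. Only Kcnk2 (ratio 0.531) and Kcnk6 (1.39) of the 32 lay between 0.5 and 2. All 4 silent-modifier, KCNT and SK genes so deep (Kcns3, Kcnt2, Kcnn1 and Kcnn3) were on the mesenchymal side, while 3 of 4 inward rectifiers were on the epithelial side.

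**Figure D2:**
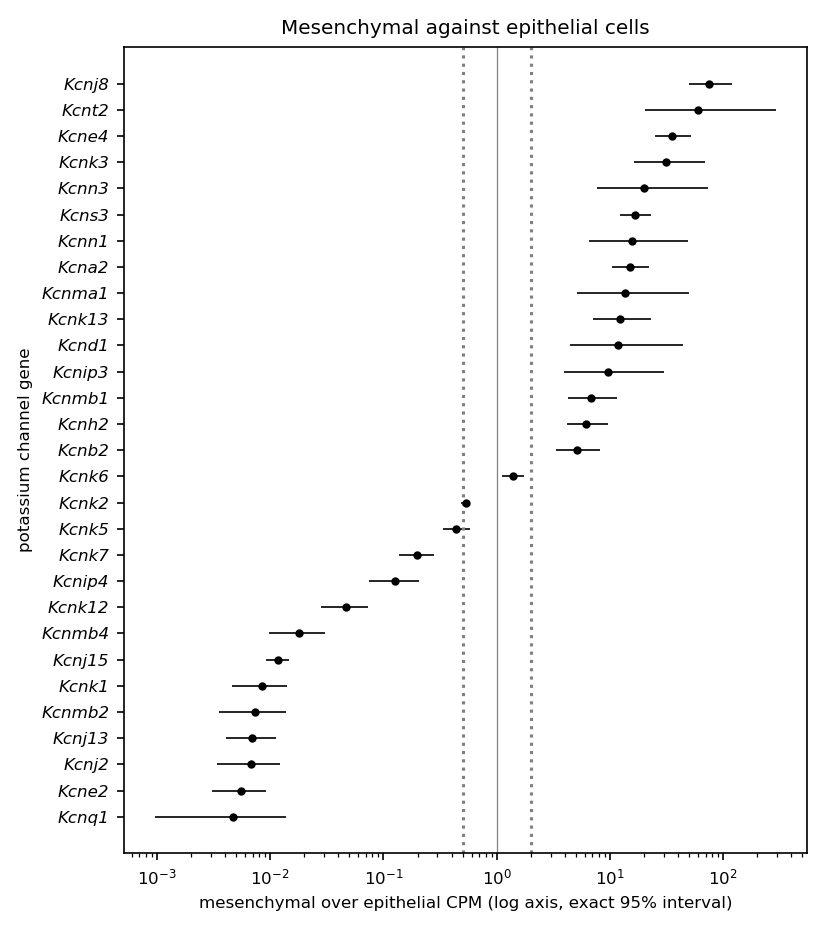
Ratio of CPM in mesenchymal-like over epithelial-like cells for 29 of the 32 potassium channel genes, on a log axis, with exact 95% intervals (counting error only) and dotted lines at 0.5 and 2. Kcnj8 lies farthest to the right, and all but Kcnk2 and Kcnk6 lie outside the dotted lines.

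Type 2-like cells, which make surfactant and absorb fluid, were highest for a set of inward rectifier, leak channel and accessory genes. Kcnj15, encoding the inward rectifier Kir4.2, had 3102 UMIs there, at 195.8 CPM (189.0 to 202.9). It was at 30.5 CPM in club-like, 26.7 in endothelial-like, 13.1 in type 1-like and 8.98 in ciliated-like cells, and at 0.657 to 8.40 CPM in the other 6 classes. The highest class was 6.43-fold above the next (5.09 to 8.24), or 4.12-fold with the 50 most abundant genes left out of the totals. Kcnj2, encoding Kir2.1, was at 46.3 CPM in type 2-like cells, 14.6 in endothelial-like cells on 6 UMIs and 9.58 in ciliated-like cells, and at 2.96 or less elsewhere. Kcne2 was at 75.5 CPM in type 2-like cells, 29.1 in ciliated-like cells and 8.92 in type 1-like cells, a ratio of 2.60 (2.11 to 3.23) for the first pair. Its possible pore partner Kcnq1 was at 17.3 CPM in type 2-like cells, where 110 of 1641 cells had a UMI of both genes, and at 29.1 CPM in endothelial-like cells on 12 UMIs, with intervals that overlap (15.3 to 19.5 and 15 to 50.8). Kcnq1 is overlapped on the opposite strand by Kcnq1ot1. Kcnk1, encoding the leak channel TWIK-1, was at 41.5 CPM in type 2-like and 39.8 in club-like cells, which did not differ beyond counting error (ratio 1.04, 0.839 to 1.31), and with the 50 most abundant genes left out of the total the order turned (0.669).

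When the 57 proliferating-like cells were compared as a class of their own, the ratio of Kcnj15 was 2.11 and that of Kcne2 was 1.05, each against the proliferating-like cells. Among the marker lists, the type 2 list was second for that cluster.

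Type 2-like cells formed 2 clusters. Cluster 1, led by Areg and MHC class II genes, held Kcnj2 at 57.8 CPM, Kcnk1 at 49.3 and Kcnk2 at 30.3 CPM. Cluster 7, led by Lrg1 and Scd1, held them at 28.9, 29.5 and 8.30 CPM. Kcnj15 went the other way, with 184.5 CPM in cluster 1 and 213.1 in cluster 7.

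Type 1-like cells, the thin gas exchange cells, held little potassium channel RNA, with 274 UMIs or 143.8 CPM over all members against 655.2 CPM in type 2-like cells. Of 14 members with enough UMIs over both classes, 2 were at least 2-fold higher in type 1-like cells, where 27.6% of all genes were, and 10 were at most 0.5-fold, where 11.4% of all genes were. One of the 2 higher members was Kcns3, encoding the silent modifier subunit Kv9.3, at 14.2 against 0.568 CPM, a ratio of 24.9 (11.4 to 60.3). The higher count was 1 with 4000 variable genes and 4 with a looser cell filter. Kcns3 was higher still in alveolar-like fibroblasts, at 58.2 CPM. The summed level of the 9 alveolar fibroblast markers in type 1-like cells was 37.2% of that in alveolar-like fibroblasts, with none of the 9 at 0, and the part of fibroblast RNA in the Kcns3 level was not tested. For Kcnj15, high in type 2-like cells, the type 1 level was close to the share at which Sftpc was found, at 13.1 CPM where the Sftpc share gives 16.5, and the part of type 2 RNA in it was not tested.

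Ciliated-like cells, which move airway mucus, were highest for 6 members, and 5 of these were at least 2-fold above the next class. The class held 15 very deep cells (median 48051 UMIs) that fell in a finer cluster led by club markers, and the summed level of 7 club markers in the whole class was 15.7% of that in club-like cells, with none at 0. Without these 15 cells that share was 1.16%. Kcnmb2, an accessory subunit that inactivates the large-conductance calcium-activated (BK) channel, was at 174.3 CPM (160.4 to 189.0) and at 0 to 4.85 CPM in the other 10 classes. The ratio to the next class, endothelial-like with 2 UMIs, was 35.9 (9.90 to 297.4). A UMI of Kcnmb2 was found in 85.3% of ciliated-like and 3.60% of type 2-like cells, with medians of 11237.5 and 9393 UMIs per cell. After thinning each cell to 2000 UMIs the shares were 31.2% and 0.919%. Kcnmb4, which slows BK gating, was at 111.1 CPM, with 4.20 CPM or less elsewhere. An opposite-strand gene, Kcnmb4os2, overlaps it and was at 8.68 CPM in the same cells. Kcnk12, encoding the THIK-2 leak channel subunit, was at 61.7 CPM and at no more than 0.468 CPM in any other class, a ratio of 131.9 (76.8 to 245.5). Without the 15 club-led cells Kcnmb2 was at 202.3, Kcnmb4 at 128.5 and Kcnk12 at 70.5 CPM.

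The pore gene that these beta subunits serve was not seen with them. Kcnma1, encoding the BK pore, had 0 UMIs in the 3339309 UMIs of ciliated-like cells, where the floor of 3 UMIs is 0.898 CPM. Lrrc26, encoding a non-KCN accessory subunit of BK, was at 138.4 CPM in club-like and 19.5 CPM in ciliated-like cells, but 61 of its 65 UMIs in the latter lay in the 15 club-led cells, and without them its level was 1.46 CPM (0.398 to 3.74). Among the club-like cells Kcnma1 had 4 UMIs, or 1.69 CPM (0.461 to 4.33).

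Kcnip4, a calcium-binding subunit of Kv4 channels, was at 17.4 CPM in ciliated-like cells, 4.13-fold above the next class (1.35 to 20.6). Kcnk7, a 2-pore-domain gene whose product has not been seen to pass current, was at 11.1 CPM with a ratio of 2.28 whose interval spans 1 (0.589 to 19.6). Kcnj13, encoding the low-conductance rectifier Kir7.1, was shared between ciliated-like (83.6 CPM), type 2-like (53.4) and club-like cells (17.8), a ratio of 1.57 (1.36 to 1.80) for the first pair. It lies inside Gigyf2 on the opposite strand.

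In club or secretory-like cells, Kcnk2, encoding the stretch-sensitive leak channel TREK-1, was at 177.3 CPM (160.7 to 195.1), with 419 UMIs. It was at 74.3 CPM in ciliated-like cells, 37.5 in alveolar-like fibroblasts, 21.6 in type 2-like and 21.1 in adventitial-like cells, 16.3 in type 1-like, 9.70 in endothelial-like and 0.568 in peribronchial or myofibroblast-like cells, and had no UMI in smooth muscle-like, mesothelial-like or leukocyte-like cells. Outside the classes, an unnamed cluster led by cardiac muscle genes held Kcnk2 at 74.5 CPM (47.7 to 110.8) on 24 UMIs. The most Kcnk2 UMIs in 1 kept cell was 28. The club level was 2.39-fold above the ciliated one (2.04 to 2.80). Of the 248 UMIs in ciliated-like cells, 83 lay in the 15 club-led cells, at 138.2 CPM, and without them the ciliated level was 60.3 CPM (51.4 to 70.2) and the ratio 2.94. Scgb1a1 took 514741 CPM of the club-like total, and with the 50 most abundant genes out of the denominator the ratio was 4.82. Club-like cells were also the deepest, at a median of 30096.5 UMIs, and the thinned share of cells with a Kcnk2 UMI was 27.0% against 13.9% in ciliated-like cells.

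Smooth muscle-like and peribronchial or myofibroblast-like cells had summed levels of 689.5 and 667.7 CPM over all members, while the adventitial-like fibroblasts had 271.8 CPM and the alveolar-like ones 364.8 CPM. Ciliated-like and type 2-like cells had similar levels to the contractile classes, at 663.9 and 655.2 CPM. The peribronchial or myofibroblast-like class also held muscle RNA, with 8 smooth muscle markers summing to 12590.5 CPM and its 6 own markers to 11640 CPM. It is part of the other mesenchymal-like cells in the next comparison. Against all other mesenchymal-like cells, 5 of 23 members were at least 2-fold higher in smooth muscle-like cells, where 9.59% of all genes were, and 11 were at most 0.5-fold, where 15.7% were. Among the higher ones were Kcnmb1 (ratio 116.6), Kcnk3 (28.4), Kcnma1 (22.0) and Kcnh2 (18.7). Among the lower ones, Kcnj15 (0.425, 0.0106 to 2.44), Kcnb2 (0.408, 0.0835 to 1.21) and Kcnd1 (0.338, 0.00846 to 1.93) had intervals that span 1. With clusters and values taken from separate UMIs the counts of higher and lower members were 8 and 5, and with the 100-UMI minimum dropped 12 were higher. Of these 12, Kcng4 and Kcnu1 had no UMI in smooth muscle-like cells, against 46 and 34 in the other cells. Their ratios of 2.14 and 2.89 came from the floor of 3 UMIs alone and do not show a higher level.

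Kcnk3, encoding the acid-sensitive leak channel TASK-1 that sets the resting potential of pulmonary artery muscle, was at 187.8 CPM (166.1 to 211.5) in smooth muscle-like and 132.9 CPM (116.4 to 151.0) in peribronchial or myofibroblast-like cells. It was at 9.70 CPM in endothelial-like cells, where all 4 UMIs lay in 1 cell, and at 0 to 4.45 CPM in the other 8 classes. Kcnma1, the BK pore, was level between the same pair, at 31.2 and 32.4 CPM (ratio of the second to the first 1.04, 0.690 to 1.57). Its muscle subunit Kcnmb1, which raises the calcium sensitivity of BK, was at 145.5 and 23.9 CPM, a ratio of 6.10 (4.36 to 8.72). A UMI of both Kcnma1 and Kcnmb1 was found in 25 of 179 smooth muscle-like and 5 of 426 peribronchial or myofibroblast-like cells. All 42 Kcnmb1 UMIs of the latter class lay in 50 cells that the finer clustering named smooth muscle-like. The other 376 cells of that class had none. The ratio of 6.10 and the 5 cells with both UMIs thus do not compare muscle with myofibroblasts. Kcnh2, encoding the delayed rectifier ERG1, was at 87.3 CPM in smooth muscle-like cells, 8.20-fold above alveolar-like fibroblasts (6.41 to 10.5).

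Peribronchial or myofibroblast-like cells had Kcnj8 at 251.0 CPM (228.1 to 275.5), followed by adventitial-like cells at 84.8, alveolar-like fibroblasts at 41.4 and smooth muscle-like cells at 36.7 CPM, and 0 to 8.63 CPM in the other 7 classes. The highest level was 2.96-fold above the next (2.67 to 3.28). Abcc9, encoding the sulphonylurea receptor that assembles with Kcnj8, lies 16.2 kb upstream of it on the same strand. Its class order was different, with adventitial-like cells first at 148.2 CPM, then peribronchial or myofibroblast-like cells at 95.4, smooth muscle-like cells at 74.8 and alveolar-like fibroblasts at 46.1 CPM. A UMI of both was found in 1055 of 3235 adventitial-like cells. The other pore of ATP-sensitive channels, Kcnj11, had 4 UMIs in all kept cells. Kcnb2, encoding Kv2.2, was at 36.3 CPM in peribronchial or myofibroblast-like cells, 5.61-fold above mesothelial-like cells (3.00 to 11.4), and Kcns3 was at 106.7 CPM there, against 58.2 in alveolar-like fibroblasts.

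At a finer resolution the contractile cells split into 4 subclusters, which separated the channels further. One held 376 cells high for Hhip (5026 CPM), one 133 smooth muscle-like cells with Mcam at 304.8 CPM and Hhip at 20.7 CPM, one 50 smooth muscle-like cells with Hhip at 1914 CPM, and one 86 pericyte-like cells, of which 46 came from the contractile classes. The 376 and the 50 cells made up the peribronchial or myofibroblast-like class. The 133 cells and the 46 pericyte-like cells made up the smooth muscle-like class. Kcnk3 was high in all 4, at 104.8, 151.2, 280.5 and 166 CPM in that order. Kcnmb1 was at 160.8 and 149.1 CPM in both smooth muscle-like subclusters, had no UMI in the Hhip-high cells (floor of 3 UMIs 2.03 CPM) and was at 16 CPM in the pericyte-like cells. The Kcnma1 pore was at 29.7 CPM in the Hhip-high cells that lacked Kcnmb1 UMIs. Kcnh2 was at 96.3 CPM in the Mcam-high subcluster and 21.3 CPM or less in the others. Kcnj8 was at 237.9 CPM in the Hhip-high and 319.5 CPM in the smaller smooth muscle-like subcluster, against 31.8 CPM in the Mcam-high cells. These subclusters were looked at after their values were seen. The main smooth muscle-like class was also a near tie with pericytes by marker score, and with the finer clustering, where pericyte-like cells form a class, the Kcnk3 ratio was 1.05 and that of Kcnmb1 9.91.

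**Figure D3:**
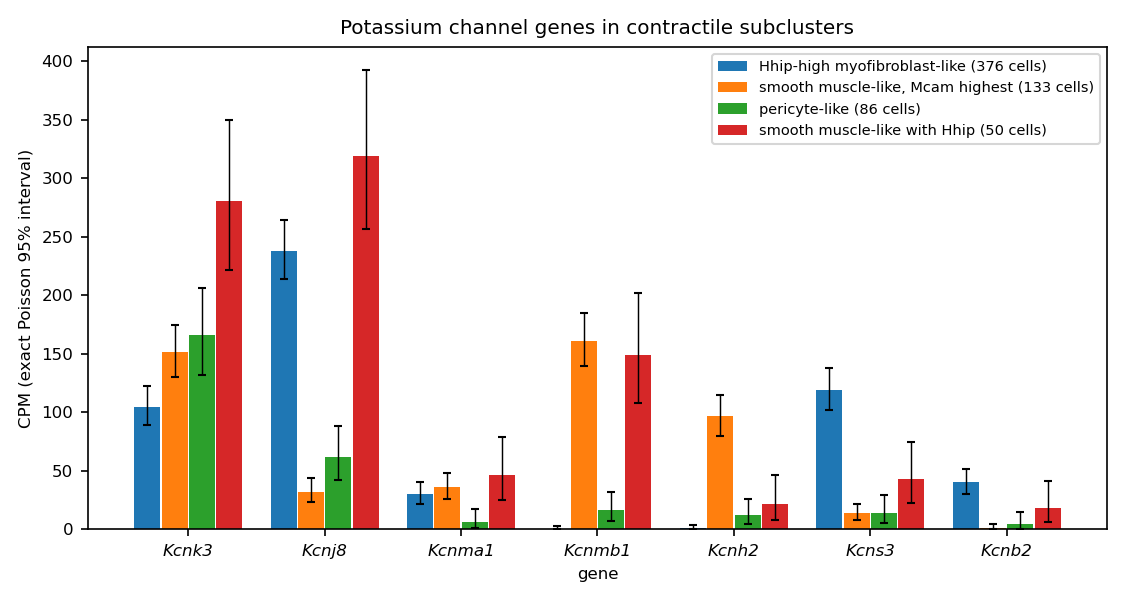
Level of 7 potassium channel genes in 4 contractile subclusters (bars, CPM, with exact Poisson 95% intervals for counting error only). Kcnmb1 is near 150 CPM in both smooth muscle-like subclusters and has no UMI in the 376 Hhip-high cells, while Kcns3 and Kcnb2 are highest in the latter.

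Between the 2 main fibroblast classes, 21 members were counted. The adventitial-like level was at least 2 times the other for 8 of them, as for 7.84% of all genes, and at most 0.5 times for 6, as for 8.27%. With 4000 variable genes the first count was 4. Kcnt2, encoding the sodium-activated channel Slick, had 365 UMIs (12.2 CPM) in adventitial-like and 1 UMI (0.0729 CPM) in alveolar-like fibroblasts, a ratio of 167.2 (29.8 to 6621). Its next class of all was endothelial-like, on 2 UMIs (ratio 2.51, 0.691 to 20.8). Kcnj8 (ratio 2.05), Kcnk6 (2.63) and Kcnn3 (5.25) were also higher. Kcnk13, encoding the THIK-1 leak channel, went the other way, at 23 CPM in alveolar-like and 0.434 CPM in adventitial-like cells (ratio 0.0189, 0.01 to 0.0328), and was 4.10-fold above its next class, leukocyte-like with 4 UMIs. Kcna2, encoding Kv1.2, was at 43.1 against 9.49 CPM and Kcns3 at 58.2 against 16.6 CPM. Kcne4, an inhibitory accessory subunit, stayed within 2-fold, at 71.9 and 41.1 CPM.

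Levels also varied inside each class. Kcnt2 was at 31.3 CPM in adventitial-like cluster 4, 15.5 in cluster 10 and 10.8 in cluster 6, and at 1.47 and 2.63 CPM in clusters 5 and 2. Across the alveolar-like clusters 3, 0 and 8, Kcnj8 was at 2.96, 30.8 and 94.8 CPM and Kcnk13 at 38.2, 25.5 and 4.38 CPM, so that these genes ran in opposite order. Clusters 5 and 8 had nearly equal scores for both fibroblast lists (0.555 against 0.361 and 0.660 against 0.373).

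**Figure D4:**
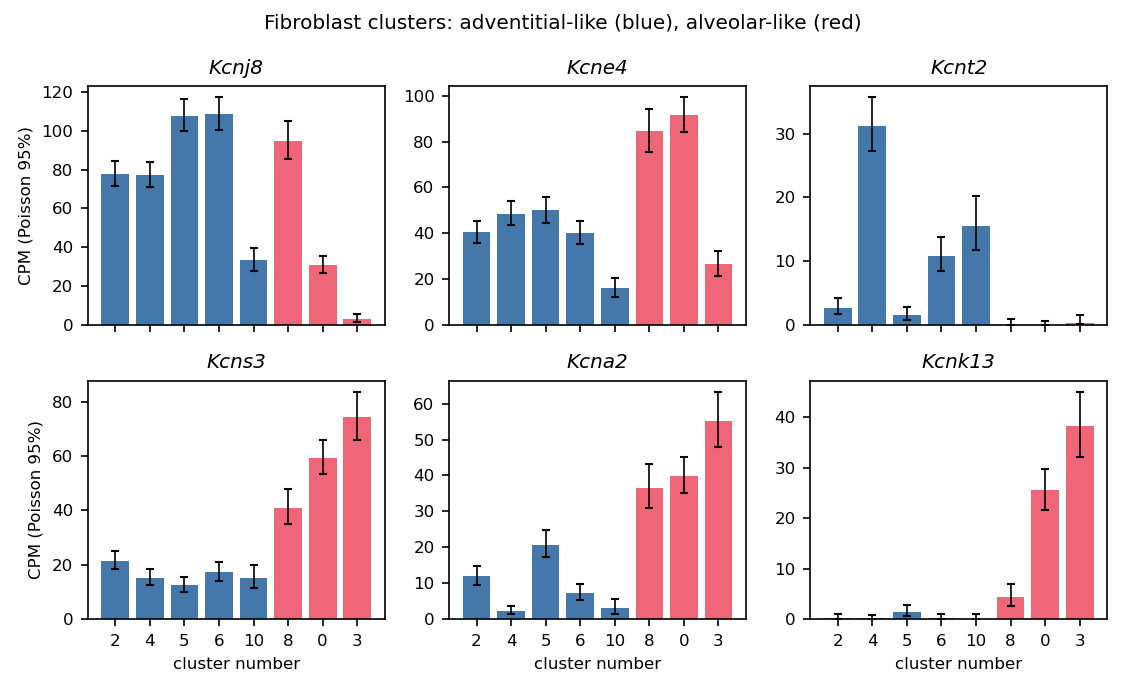
Level of 6 potassium channel genes in 8 fibroblast clusters (bars, CPM, exact Poisson 95% intervals for counting error only), with 5 adventitial-like clusters in blue and 3 alveolar-like clusters in red. Kcnt2 peaks in cluster 4 at 31.3 CPM, and Kcnj8 and Kcnk13 run in opposite order across the red bars.

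In leukocyte-like cells, Kcnn3, encoding the small-conductance calcium-activated channel SK3, was at 47.6 CPM (33.0 to 66.5), 9.57-fold above adventitial-like fibroblasts (6.39 to 14), or 15.1-fold with the looser cell filter. The 34 UMIs came from 19 of 90 cells, and all 19 also held Chil3 and Mrc1 UMIs, which 26.8% and 21.1% of the other 71 cells did. These companion genes were chosen after the values were seen. Kcnk6, a TWIK-family leak channel, was at 23.8 CPM on 17 UMIs, 2.76-fold above the next class (1.58 to 4.51). Mesothelial-like cells were highest for Kcnk5, encoding the alkaline-sensitive leak channel TASK-2, at 28.6 CPM against 12.1 CPM in endothelial-like cells, with an interval of the ratio that spans 1 (0.950 to 7.56). Kcnn1, Kcnd1 and Kcnip3 stayed at 4.01 CPM or less in every class.

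For several of the rarer members 1 class held the largest part of the UMIs. All 46 UMIs of Kcng4 in kept cells were in adventitial-like fibroblasts, with no cell above 1 UMI. Smooth muscle-like cells held 43 of 44 UMIs of Kcna5, encoding Kv1.5 of pulmonary artery muscle, and 43 of 81 UMIs of Kcnab1, a Kv1 beta subunit. Mesothelial-like cells held all 11 UMIs of Kcnd2, 36 of 88 of Kcnd3 (both Kv4 pores) and 38 of 46 of Kcnc4. Ciliated-like cells held 59 of 79 UMIs of Kcnh3, club-like cells 25 of 42 of Kcne3, and leukocyte-like cells 26 of 45 of Kcnn4, the intermediate-conductance calcium-activated channel. For Kcna1, 26 of 49 UMIs were in an unnamed shallow cluster, and the richest single cell held 11.

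Ion transport genes that work with potassium channels gave the setting. Of 10 epithelial sodium, chloride and water transport genes, 8 were at most 0.5-fold in mesenchymal-like against epithelial-like cells and 2 were at least 2-fold (17.6% and 24.3% of all genes). In type 1-like against type 2-like cells 6 of 7 counted were higher and 1 lower (27.6% and 11.4% of all genes). The sodium channel subunit genes Scnn1a, Scnn1b and Scnn1g were at 528.5, 297.0 and 427.7 CPM in type 1-like cells. That class was highest for none of the 32 potassium channel members described by class. Cftr, the chloride channel gene, was at 83.2 CPM in type 2-like cells, as was the pump subunit gene Atp1b1 at 886.2 CPM. Of 11 counted sodium-potassium pump genes, 6 were higher and 2 lower in mesenchymal-like cells, and of all genes 24.3% and 17.6%. Cacna1c, the calcium channel of muscle contraction, was at 70.7 CPM in smooth muscle-like cells. Of 10 counted calcium entry and release genes, 5 were higher and 1 lower in mesenchymal-like cells, against the same shares of all genes.

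The authors' deposited table of 17 clusters listed all 32 members. For 21 of the 32 its highest cluster was led by the same marker list as the highest class here, and for 11 it was not. That cluster was chosen by mean count per cell and the class here by CPM. These are unlike measures, and the part of cell depth in the differences was not tested. In the authors' deposited table Kcnmb2 had a mean count of 1.29 in cluster 13, which ciliated markers led, with a log2 fold change of 6.63. Kcnk3 had a mean count of 0.871 in the authors' deposited table for cluster 6, led by smooth muscle markers, with a log2 fold change of 5.83. Kcnn3 differed, since the authors' deposited table had it highest in cluster 6, at a mean count of 0.0914, and not in a leukocyte-led cluster. Kcnj8, Kcnb2 and Kcnma1, highest in peribronchial or myofibroblast-like cells here, were also highest in cluster 6 of the authors' deposited table. Kcnk2, highest in club-like cells here, had its highest mean count in the authors' deposited table in cluster 8, led by the erythroid list, at 1.01, with the club-led cluster 12 next at 0.528. Kcns3 was highest in cluster 1 of the authors' deposited table, led by alveolar fibroblast markers, at a mean count of 0.482. In the authors' deposited table Kcnk6 was highest in cluster 3, led by adventitial fibroblast markers, at a mean count of 0.0805.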

How the data were processed

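Lung cells sorted as CD45- and CD31- were captured in droplets and sequenced from the 3′ end of their RNA (kit version 3 in the labels, 3.1 in the series text). The authors aligned and counted reads with Cell Ranger 3.0.0 on mm10, per the submitters' processing notes. Their deposited matrix gives unnormalized UMI counts of 31055 features in 11118 barcodes, 85746975 UMIs in all. A second table deposited by the authors lists, per its file header, mean counts per cell (scaling not given), log2 fold changes and adjusted p-values for 17 clusters.

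The filters left 9391 barcodes, Scrublet in scanpy 1.11.5 (expected rate 0.08) called 458 doublets (4.88%), and 8933 cells with 699 to 77372 UMIs were kept. Counts were scaled to 10000 per cell. From 2000 variable genes without potassium channel, partner, mitochondrial, ribosomal and reporter genes, 30 principal components, 15 neighbours and Leiden clustering (leidenalg 0.10.2, resolution 1, and 2 for subclusters, seed 0) gave 24 clusters. A cluster took the list with the highest mean z-score among 19 marker lists with at least 3 markers detected in 25% of cells. It stayed unnamed when at least 2 markers of another list, and more than its own, were among its 10 leading genes, when it was shallow with no own marker there, or when cardiac genes led it. These last limits, and the treatment of proliferating cells as a state, were set after seeing the data.

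UMIs were summed per class. Ratios have exact conditional binomial 95% intervals, and comparisons of 2 sets counted genes with at least 30 UMIs over both as higher at 2 and lower at 0.5. For a set with no UMI a floor of 3 UMIs was used, as a bound. All genes of at least 100 UMIs, without naming markers, gave the background. The ratio calculation was run on simulated Poisson sums with known ratios. These had no spread between cells, so they check the calculation and not the ratios reported here. The members and lists were chosen with earlier results of these data known. Values of 3 of the 32 members and of 1 partner gene are not reported here, though counts over the members include them. The other members of at least 100 UMIs are named or counted, in full where at least 2-fold above every other class or among the 10 with most UMIs. Coordinates are from GENCODE M21 (mm10), where 92 of 92 members were found, and promoters from RefSeq. The alternatives were 13 other settings.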

Additional observations from a re-analysis of the deposited data

How the results depend on the processing

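The counts and ratios were recomputed under 13 other settings, 4 of them chosen after seeing the data. The number of members at least 2-fold above every other class was 19, and 18 to 27 over the settings. The setting with no minimum of 100 UMIs also takes in members beyond the 32, so not every count in this range is out of 32. Of those 19, 14 stayed at least 2-fold in every setting and 18 stayed above 1. The 5 that fell under 2-fold were Kcne2 (1.05 with proliferating cells as a class), Kcnt2 (1.34 with the naming rule as first written), Kcnk6 (1.72 with each cell weighted alike), Kcnj2 (1.84 with clusters and values from separate UMIs) and Kcnk7. Of 384 recomputed ratios, 355 moved by less than counting error, 28 moved by more and 1 turned: Kcnk7 was at 0.988 of endothelial-like cells with clusters and values from separate UMIs. With clusters and values from separate UMIs, 8 members were higher and 5 lower in smooth muscle-like cells (5 and 11 otherwise). With no minimum of 100 UMIs 12 were higher, but Kcng4 and Kcnu1 among them had no UMI in smooth muscle-like cells. They passed by the floor alone. With 4000 variable genes, 4 rather than 8 members were higher in adventitial-like than in alveolar-like fibroblasts, and 1 rather than 2 in type 1-like than in type 2-like cells. The latter was 4 with the looser cell filter. The cause of these shifts was not tested. No paired analysis was possible because 1 matrix pools the 4 samples. Levels in the 61 endothelial-like cells are limited by depth, since 3 UMIs are 7.28 CPM there.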
